A study of Danio rerio with 12 samples.

Results

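The 9 genes described here are transcription factors known from the neural ectoderm of the zebrafish embryo: the SoxB1 genes sox2, sox3, sox19a and sox19b, the Zic genes zic2a and zic2b, the Iroquois genes irx7 and irx1b, and the homeobox gene gbx2. They were taken from the deposited gene table by symbol, as 9 of its 31953 genes. All 9 were found once each, and all 9 were among the 17609 genes that were tested.

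The table holds RNA-seq of clusters of dorsal forerunner cells (DFCs), the progenitors of Kupffer's vesicle, the ciliated organ that sets left-right asymmetry in zebrafish. It was made to ask which transcripts of these progenitors change when a transcriptional cofactor of the Hippo pathway is knocked down. Vgll4l-KD embryos were injected with a morpholino (MO), an antisense oligonucleotide, against vgll4l, which encodes a Vestigial-like cofactor. Yap/Taz-KD embryos received MOs against yap1 and wwtr1 (taz) together, and Control embryos a standard control MO. All embryos carried Tg(sox17:GFP), which marks the DFCs, were injected at the 1-cell stage and were collected at 90% epiboly. A group has 4 libraries, each described as made from a single cluster dissected under fluorescence and amplified as cDNA by the SMART-Seq v4 kit. No cell sorting is described, so any cell taken along with a cluster is in its library. A knockdown by MO acts in the whole injected embryo and not in the DFCs alone.

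SoxB1 proteins keep neural progenitors undifferentiated and act with Pou5f3 and Nanog in the early embryo, where sox19b is the SoxB1 gene supplied by the mother in zebrafish. Zic zinc finger proteins act in the dorsal neural tube and at the neural plate border, and Iroquois homeobox proteins in the subdivision of the neural plate. Gbx2 acts on the hindbrain side of the midbrain-hindbrain boundary, opposite Otx proteins. DFCs are not neural cells and go on to line Kupffer's vesicle.

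Between 8698990 and 11235726 reads per Vgll4l-KD library, 9071323 and 10774775 per Yap/Taz-KD library and 4487894 and 6148871 per Control library were assigned to genes. The values are normalized counts, that is reads divided by a size factor of the library, in which 1 read was worth 0.764 to 0.977 in Vgll4l-KD, 0.666 to 0.798 in Yap/Taz-KD and 1.13 to 1.62 in Control libraries. Among the targeted genes, vgll4l had 1016 to 1107 normalized counts in Vgll4l-KD, 1556 to 1677 in Yap/Taz-KD and 6694 to 7266 in Control libraries. yap1 had 1368 to 1547, 1738 to 1802 and 2122 to 2391 in the same groups, and wwtr1 had 0.977 to 3.82 in Vgll4l-KD and 6.39 to 11.3 in Yap/Taz-KD libraries and 0 in the 4 Control libraries. An MO blocks splicing or translation and need not lower a transcript's count, so these values do not test the labels. For the typical gene among those with higher read counts, the squared difference between libraries of 1 group was set against that of counting noise. This ratio of squares was 1.42 to 1.71 in Yap/Taz-KD. In Vgll4l-KD it was 1.58 to 2.12 without replicate 2 and 5.97 to 8.40 with it. Control libraries fell into the pairs 1 with 2 and 3 with 4, with ratios of 1.59 and 1.48 within a pair and 3.23 to 3.93 across pairs. Means below are over 4 libraries with their SD. Differences are on the scale of log2(normalized count + 1), with their standard error (SE) or 95% interval from limma. The spread of a gene is estimated over all 3 groups, so an interval also reflects the group outside the comparison. To pass, a gene needed an adjusted p below 0.05 together with a log2 fold change of 1 or more in either direction.

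Of the 9 genes, sox2, zic2a, irx7 and irx1b were higher in Vgll4l-KD than in Control clusters and gbx2 was lower, while sox3, sox19a, sox19b and zic2b did not pass. In Yap/Taz-KD clusters sox3 and irx7 were higher than in Control clusters, sox19a, zic2a and zic2b were lower, and sox2, sox19b, irx1b and gbx2 did not pass. These 4 and 1 genes stand beside 30.5% of all tested genes that passed as higher and 40.9% that passed as lower in Vgll4l-KD. In Yap/Taz-KD the 2 and 3 genes stand beside 30.0% and 38.7%. With so large a part of the transcriptome past the threshold, the counts alone set these genes apart from no others. Whether groups overlapped is likewise given only to describe each gene. The share of all tested genes whose groups do not overlap was not counted. The sizes and the order of the groups are what differs from gene to gene, and they are given gene by gene below.

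**Figure D1:**
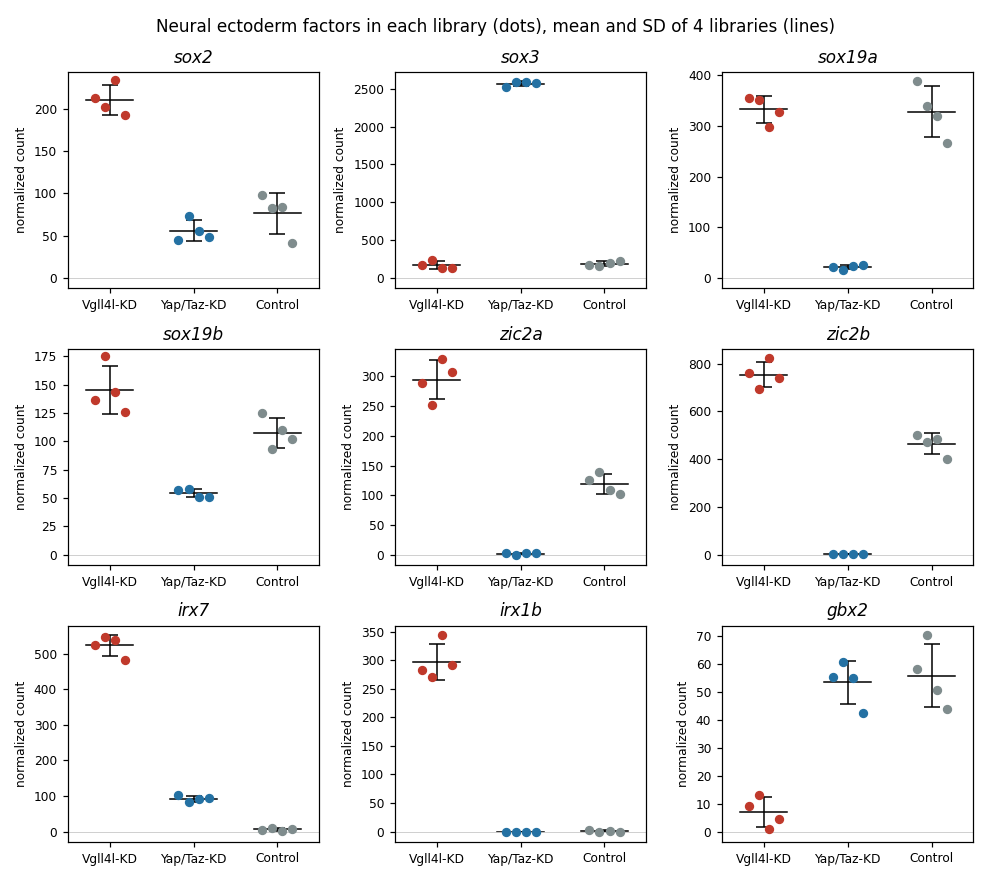
Normalized count (vertical axis, linear, from 0) of each of the 9 genes in each library (dots), with the mean and SD of 4 libraries (lines), for Vgll4l-KD, Yap/Taz-KD and Control. The 4 Yap/Taz-KD libraries stand alone at 2527 to 2593 for sox3 and at 16.0 to 24.8 for sox19a, and the 4 Vgll4l-KD libraries stand alone at 271 to 344 for irx1b.

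Among the SoxB1 genes, sox2 (ENSDARG00000070913), which marks and maintains neural progenitors, had 213, 203, 235 and 194 normalized counts in Vgll4l-KD libraries 1 to 4. The Yap/Taz-KD libraries had 45.3, 73.5, 55.6 and 48.9 and the Control libraries 98.8, 82.4, 83.4 and 41.4. Each Vgll4l-KD library was above every other library, whereas Yap/Taz-KD and Control libraries overlapped, with Control replicate 4 the lowest of all. sox2 averaged 211 ± 17.6 in Vgll4l-KD and 76.5 ± 24.5 in Control clusters (SD, n = 4 each), a log2 fold change of 1.52 (95% interval 1.01 to 2.02, adjusted p = 3e-05). In Yap/Taz-KD clusters its mean was 55.8 ± 12.5, and the log2 fold change of -0.40 against Control did not pass (95% interval -0.91 to 0.10, adjusted p = 0.13).

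sox3 (ENSDARG00000053569), another SoxB1 factor of neural progenitors, had 2527, 2593, 2585 and 2579 normalized counts in Yap/Taz-KD libraries, against 176, 153, 199.5 and 221 in Control libraries. All 4 Yap/Taz-KD libraries were far above the Control libraries and close to each other. The log2 fold change was 3.78 (SE 0.17, adjusted p = 7.2e-11), with means of 2571 ± 30.1 in Yap/Taz-KD and 187.5 ± 29.6 in Control clusters. In Vgll4l-KD libraries sox3 had 174, 235, 135 and 124 normalized counts, which overlapped the Control libraries. That log2 fold change of -0.20 did not pass (95% interval -0.56 to 0.17, adjusted p = 0.29), it came to -0.38 with an adjusted p of 0.016 without Vgll4l-KD replicate 2, and it changed sign under TMM scaling (0.02).

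sox19a (ENSDARG00000010770), the SoxB1 gene of the early neural plate in zebrafish, ran the other way in Yap/Taz-KD clusters. It had 21.3, 16.0, 23.1 and 24.8 normalized counts in Yap/Taz-KD libraries, against 388.5, 339, 319 and 266 in Control libraries. No Yap/Taz-KD library came near the lowest Control library, and sox19a fell by 3.89 on the log2 scale (SE 0.15, adjusted p = 1.6e-11). The Vgll4l-KD libraries had 354.5, 352, 298 and 327, within the span of the Control libraries. The log2 fold change there was 0.03 (95% interval -0.29 to 0.35, adjusted p = 0.86).

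sox19b (ENSDARG00000040266), the maternally supplied member, had 137, 176, 144 and 126 normalized counts in Vgll4l-KD libraries, 57.3, 58.3, 51.2 and 51.1 in Yap/Taz-KD libraries and 125, 93.1, 110.5 and 102 in Control libraries. The 3 groups followed each other without overlap, highest in Vgll4l-KD and lowest in Yap/Taz-KD, although Vgll4l-KD replicate 4 and Control replicate 1 nearly met. Both differences from Control had an adjusted p under the threshold and a fold under it. The log2 fold change was 0.43 in Vgll4l-KD (95% interval 0.14 to 0.72, adjusted p = 0.0079) and -0.96 in Yap/Taz-KD (95% interval -1.25 to -0.68, adjusted p = 1.1e-05). Without Control replicate 2 the Yap/Taz-KD value came to -1.03 and passed. Counts of different genes were not compared with each other, since no gene lengths were at hand.

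The Zic genes zic2a and zic2b, co-orthologs of a single mammalian gene, were low in all 4 Yap/Taz-KD libraries. zic2a (ENSDARG00000015554) had 289, 252, 330 and 307 normalized counts in Vgll4l-KD libraries, 3.33, 0, 2.17 and 2.19 in Yap/Taz-KD libraries and 126, 139, 108 and 102 in Control libraries. The 3 groups did not overlap. zic2a rose by 1.31 on the log2 scale in Vgll4l-KD (95% interval 0.55 to 2.07, adjusted p = 0.0034) and fell in Yap/Taz-KD (log2 fold change -5.53, adjusted p = 2.8e-09). The fall rests on 11 reads in the 4 Yap/Taz-KD libraries, against 351 reads in the 4 Control libraries. Pooled over libraries and scaled, Control was 58.5-fold higher than Yap/Taz-KD, with a 95% counting interval of 32.3 to 118 that covers counting error only.

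zic2b (ENSDARG00000037178) had 760, 696, 822 and 738 normalized counts in Vgll4l-KD libraries, 2.66, 0.798, 1.44 and 2.19 in Yap/Taz-KD libraries and 502, 473, 482.5 and 401 in Control libraries. Here too no group overlapped another. In Vgll4l-KD clusters the log2 fold change of 0.70 stayed under the fold threshold (95% interval 0.29 to 1.10, adjusted p = 0.0032). In Yap/Taz-KD clusters zic2b fell (log2 fold change -7.44, SE 0.19, adjusted p = 5.1e-13), on 10 reads in Yap/Taz-KD libraries against 1387 in Control libraries. This pooled ratio was 254-fold higher in Control, with a counting interval of 138 to 532. Reads shared by both Zic copies could have been assigned to either, so the split between them is uncertain. The loss of both in Yap/Taz-KD libraries does not depend on that split.

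irx7 (ENSDARG00000002601), an Iroquois gene with a role in the zebrafish hindbrain and midbrain-hindbrain region, was the member higher than Control in both knockdowns. It had 526, 548, 538 and 483 normalized counts in Vgll4l-KD libraries, 103, 82.2, 90.9 and 94.1 in Yap/Taz-KD libraries and 4.86, 10.7, 2.25 and 7.10 in Control libraries. The Control libraries held 18 reads in all, and every knockdown library was above every Control library. irx7 rose by 6.33 in Vgll4l-KD (SE 0.29, adjusted p = 1e-10) and by 3.84 in Yap/Taz-KD (adjusted p = 1.8e-08) on the log2 scale. From pooled reads it was 87.4-fold higher in Vgll4l-KD (counting interval 55.2 to 148) and 15.5-fold higher in Yap/Taz-KD (9.74 to 26.4) than in Control.

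irx1b (ENSDARG00000056594), an Iroquois gene of the neural plate, was found at depth in Vgll4l-KD clusters only. Its libraries there had 283, 271, 344 and 291 normalized counts, from 1326 reads. The 4 Yap/Taz-KD libraries were at 0, and the Control libraries had 3.24, 0, 1.13 and 0, from 3 reads. irx1b was higher in Vgll4l-KD than in Control (log2 fold change 7.42, SE 0.40, adjusted p = 4.5e-10), and the pooled ratio was 297-fold with a counting interval of 101 to 1440. Between Yap/Taz-KD and Control, both groups were at or under a floor of 3 reads over the group, so no fold is given (adjusted p = 0.079). The call depends on the setting: irx1b passed as lower in Yap/Taz-KD without Control replicate 2 or without Control replicate 4 (adjusted p = 0.026 by limma), with Control libraries averaged in pairs (0.0055 by limma), with edgeR (0.04) and with DESeq2 (0.034).

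gbx2 (ENSDARG00000002933) was the member that fell in Vgll4l-KD clusters. It had 9.17, 13.2, 0.977 and 4.61 normalized counts in Vgll4l-KD libraries, from 32 reads, against 58.3, 70.2, 50.7 and 43.8 in Control libraries. No Vgll4l-KD library reached the lowest Control library, and the spread within Vgll4l-KD was wide, with replicate 2 the highest. The log2 fold change was -3.14 (95% interval -4.15 to -2.13, adjusted p = 2.2e-05), and -3.53 without Vgll4l-KD replicate 2. The Yap/Taz-KD libraries had 55.3, 60.7, 54.9 and 42.3 and overlapped Control, with a log2 fold change of -0.05 (95% interval -1.07 to 0.96, adjusted p = 0.94) that became 0.09 under TMM scaling.

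Both knockdowns were measured against the same Control libraries, so their difference was tested directly. All 9 genes passed between Vgll4l-KD and Yap/Taz-KD clusters, 7 of them higher and 2 lower in Vgll4l-KD, where 30.0% and 33.2% of all tested genes passed in those directions. sox3 (log2 difference -3.98, adjusted p = 5.7e-11) and gbx2 (-3.09, adjusted p = 2.9e-05) were lower in Vgll4l-KD. Among the 7 higher ones, sox19b differed least (1.39, adjusted p = 2.4e-07), followed by sox2 (1.92, adjusted p = 3.2e-06). The difference of irx7 was 2.49 (adjusted p = 2.1e-06) and that of sox19a 3.92 (adjusted p = 2e-11). The Zic genes differed by 6.84 for zic2a (adjusted p = 3.9e-10) and 8.14 for zic2b (adjusted p = 3.2e-13), and zic2b was 415-fold higher from pooled reads (counting interval 226 to 867). irx1b, at 0 in Yap/Taz-KD, was at least 544-fold higher in Vgll4l-KD at the floor of 3 reads over the group.

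**Figure D2:**
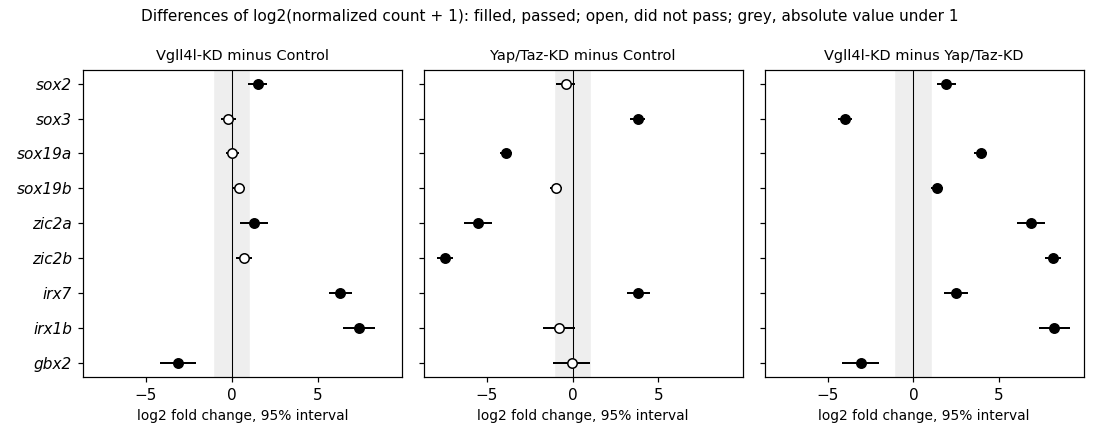
Log2 fold change (horizontal axis, log2(normalized count + 1) scale) of the 9 genes in the 3 comparisons, with 95% intervals. Filled points passed, open points did not and the grey band marks absolute values under 1. In the first panel irx1b (7.42) and irx7 (6.33) lie far to the right and gbx2 (-3.14) to the left, and in the last panel all 9 points are filled.

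The median log2 fold change of the 9 genes was 0.70 in Vgll4l-KD and -0.79 in Yap/Taz-KD, or -0.68 over the 8 genes other than irx1b, beside medians of -0.26 and -0.27 over all tested genes. The value of -0.79 is that of irx1b itself, from 3 reads in Control and 0 in Yap/Taz-KD libraries. TMM scaling moved the medians over all genes to -0.08 and -0.15. Summed, the 9 genes made up 0.0296 to 0.0334% of normalized counts in Vgll4l-KD, 0.0392 to 0.0398% in Yap/Taz-KD and 0.0173 to 0.0204% in Control libraries. sox3 alone gives the Yap/Taz-KD sum most of its size. Within the SoxB1 family, sox3 passed as higher and sox19a as lower in Yap/Taz-KD. In Vgll4l-KD both Iroquois members passed as higher.

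Other genes of the same families were counted from lists written with earlier results of these data known. The counts of all lists below stand beside the shares over all tested genes. Those were 30.5% higher and 40.9% lower in Vgll4l-KD, and 30.0% and 38.7% in Yap/Taz-KD. A tested gene with no reads in both compared groups counts as not passed and enters a median as 0. The other SoxB genes include the SoxB1 genes sox1a and sox1b and the SoxB2 genes. Of 5 listed, 4 were tested, none passed as higher and 3 as lower in Vgll4l-KD, and 1 passed as higher and 2 as lower in Yap/Taz-KD. Their median log2 fold changes were -1.71 and -2.68, the second -3.10 with genes at 0 in a group put at their bound. The first includes sox21b, which had no reads in Vgll4l-KD or Control libraries. sox1b (ENSDARG00000008131) had 4 reads in all Vgll4l-KD and 2 in all Yap/Taz-KD libraries, against 356 ± 39.8 normalized counts in Control clusters (log2 fold change -7.91, adjusted p = 1.1e-09 in Vgll4l-KD). Control was 966-fold above Yap/Taz-KD, with a counting interval of 267 to 7990. Its partner sox1a had 18.8 ± 4.09 in Vgll4l-KD and 60.0 ± 8.88 in Yap/Taz-KD, against 76.7 ± 8.49 in Control clusters, and was lower in Vgll4l-KD (log2 fold change -1.99, adjusted p = 2.2e-07). Its Yap/Taz-KD value of -0.35 did not pass.

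Of 4 other Zic genes counted, 2 were tested. In Vgll4l-KD 1 passed as higher and 1 as lower, and in Yap/Taz-KD none passed as higher and 1 as lower. zic4 (ENSDARG00000031307), a Zic gene of the dorsal neural tube, had 104 ± 16.1 normalized counts in Vgll4l-KD clusters and 1 read in each of the other groups, a ratio of 313-fold over Control with a counting interval of 55.9 to 12380. So zic4 was near 0 in Control clusters, where zic2a and zic2b were not. zic1, also of the dorsal neural tube, passed as lower in both knockdowns at a low level, with 3 reads in all Vgll4l-KD and 0 in all Yap/Taz-KD libraries, against 9 in all Control libraries.

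Of 11 other Iroquois genes listed, 7 were tested. In Vgll4l-KD 3 passed as higher and 3 as lower (median 0.92), and in Yap/Taz-KD 2 passed as higher and 2 as lower (median -0.44). Among those higher in Vgll4l-KD, irx3b rests on 21 reads, from 0 to 18.6 normalized counts per library. It overlapped Control, where it was at 0 (limma adjusted p = 0.047). irx4a (ENSDARG00000035648) had 414 ± 63.7 normalized counts in Vgll4l-KD clusters and 3 reads in each of the other groups, which is 416-fold over Control with a counting interval of 142 to 2020. Its copy irx4b ran the other way, at 124 ± 17.6 in Yap/Taz-KD and 14.1 ± 2.50 in Control clusters (log2 fold change 3.05, adjusted p = 5.5e-06), with 3 reads in all Vgll4l-KD libraries. irx4b is the neighbour of irx1b in the RefSeq annotation of GRCz12tu. In Vgll4l-KD these neighbours moved in opposite directions, with irx4b at -3.42 against Control. In Yap/Taz-KD only irx4b had a measured change, since irx1b was at or under the floor there and in Control. irx5b had 69.7 ± 25.0 in Vgll4l-KD and 18.7 ± 7.34 in Control clusters (log2 fold change 1.86, adjusted p = 4.4e-04), while irx5a had 28.5 ± 6.04 and 150 ± 15.1 in those groups (-2.37, adjusted p = 3.9e-09). irx3a rose in Yap/Taz-KD clusters, with 1283 ± 11.2 against 557 ± 42.1 in Control (1.20, adjusted p = 7.3e-10). irx1a, the copy of irx1b, fell to 4.07 ± 2.16 in Yap/Taz-KD clusters, against 94.8 ± 35.6 in Control (-4.27, adjusted p = 3.1e-08), and fell by 1.16 in Vgll4l-KD (adjusted p = 0.0057).

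The list around gbx2 holds other genes of the midbrain-hindbrain boundary. Of 10 listed, 8 were tested, with 6 higher and 0 lower in Vgll4l-KD (median 4.55) and 4 higher and 3 lower in Yap/Taz-KD (median 1.22, or 1.16 with genes at 0 put at their bound). The Vgll4l-KD median includes en2b, which had no reads in Vgll4l-KD or Control libraries. The 3 lower in Yap/Taz-KD were otx1, otx2a and pax8, near the floor in both groups. They had 5, 9 and 11 reads in all Control libraries and 0, 5 and 1 in all Yap/Taz-KD libraries, and their groups overlapped. her11 (ENSDARG00000002707), a Hairy-related repressor gene of that boundary, had 393 ± 48.5 normalized counts in Vgll4l-KD and 130 ± 13.7 in Yap/Taz-KD, against 1.64 ± 1.35 in Control clusters. Its log2 fold changes were 7.40 and 5.82 (adjusted p = 9.6e-11 and 1.1e-09). Its relative her5 had 20.9 ± 6.33 in Vgll4l-KD and 216 ± 15.1 in Yap/Taz-KD clusters, with 2 reads in all Control libraries, where the Yap/Taz-KD ratio was 326-fold with a counting interval of 89.9 to 2692. otx2a, a forebrain and midbrain factor, had 347 ± 28.7 in Vgll4l-KD and 2.80 ± 1.47 in Control clusters (6.59, adjusted p = 5.3e-10), and 0.894 ± 0.924 in Yap/Taz-KD. gbx1, the relative of gbx2, had 78.6 ± 17.8 in Vgll4l-KD clusters and 3 reads in all Control libraries, 79.2-fold higher with a counting interval of 26.9 to 386, so the Gbx genes moved in opposite directions in Vgll4l-KD. otx1 had 109 ± 19.7 in Vgll4l-KD and 1.56 ± 1.09 in Control clusters (5.55, adjusted p = 2.6e-09) and was at 0 in Yap/Taz-KD.

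Of 13 forebrain and eye field genes listed, 8 were tested, with 3 higher and 4 lower in Vgll4l-KD (median -0.59) and 0 higher and 7 lower in Yap/Taz-KD (median -4.71, or -5.24 with genes at 0 put at their bound). Among those lower in Yap/Taz-KD, six7 had 6 reads in all Control libraries and its groups overlapped, and emx3 had 18 Control reads. six3a (ENSDARG00000058008), an anterior forebrain and eye factor, had 2.78 ± 4.46 normalized counts in Vgll4l-KD, against 583 ± 106 in Control clusters (log2 fold change -7.88, adjusted p = 5.8e-09). It was at 0 in Yap/Taz-KD libraries, at least 1045-fold lower than in Control at the floor of 3 reads over the group. barhl2, a BarH-like factor of the diencephalon, had 10.0 ± 10.5 in Vgll4l-KD and 87.1 ± 7.93 in Yap/Taz-KD, against 1601 ± 248 in Control clusters, with log2 fold changes of -7.63 (adjusted p = 1.6e-09) and -4.18 (adjusted p = 1.1e-06). emx3, a telencephalon gene, had 118 ± 16.7 in Vgll4l-KD and 5.90 ± 3.59 in Control clusters (4.29, adjusted p = 3.8e-07).

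Hindbrain and posterior neural genes were mixed, with 9 of 13 tested, 4 higher and 3 lower in Vgll4l-KD (median 0.67) and 3 higher and 4 lower in Yap/Taz-KD (median 0.00). That median of 0.00 is the value of hoxd4a, which had 0 reads in Yap/Taz-KD and in Control libraries. It therefore does not show that the detected genes of this list balanced. hnf1ba (ENSDARG00000006615), a caudal hindbrain factor, had 212 ± 30.3 normalized counts in Vgll4l-KD and 1102 ± 32.6 in Yap/Taz-KD, against 6.65 ± 2.87 in Control clusters (log2 fold changes 4.87 and 7.26, adjusted p = 9.9e-11 and 2.8e-12). The Hox gene hoxb1b had 505 ± 7.44 in Vgll4l-KD and 31.6 ± 2.11 in Yap/Taz-KD, against 145 ± 7.33 in Control clusters, which is higher in the first (1.79, adjusted p = 1.9e-10) and lower in the second (-2.16, adjusted p = 3.2e-11). mafba, a hindbrain segment gene, likewise rose in Vgll4l-KD (3.40, adjusted p = 3.8e-08) and fell in Yap/Taz-KD (-2.37, adjusted p = 2e-06). Its fall rests on 8 reads in all Yap/Taz-KD libraries, against 37 in all Control libraries. foxb1b, a forkhead gene of the neural plate, had 213 ± 11.8 in Yap/Taz-KD and 15.9 ± 2.93 in Control clusters (3.68, adjusted p = 8.9e-07).

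Of 12 proneural and early progenitor genes, 10 were tested, with 4 higher and 1 lower in Vgll4l-KD (median 0.07, or 0.28 with genes at their bound or left out) and 6 higher and 1 lower in Yap/Taz-KD (median 2.51). neurog1, the proneural gene of early neurons, had 126 ± 11.6 normalized counts in Vgll4l-KD clusters and 3 reads in all Control libraries, 126-fold higher with a counting interval of 42.8 to 612. her9 had 42.3 ± 12.2 in Vgll4l-KD and 571 ± 27.2 in Yap/Taz-KD, against 1.28 ± 0.993 in Control clusters (4.34 and 8.10, adjusted p = 1.2e-08 and 2.4e-11). her3, a repressor of neurogenesis in the neural plate, had 72.1 ± 14.4 in Vgll4l-KD and 162 ± 15.3 in Control clusters and fell by 1.17 (adjusted p = 1.9e-06). Among 11 neural plate border and crest genes 8 were tested, with 6 higher and 1 lower in Vgll4l-KD (median 3.15) and 3 higher and 4 lower in Yap/Taz-KD (median -0.54). pax7b, of the border and crest, had 135 ± 16.7 in Vgll4l-KD and 4.48 ± 2.87 in Control clusters (4.81, adjusted p = 6.8e-08). It passed as lower in Yap/Taz-KD on 4 reads against 13 in Control libraries, with overlapping groups. sox9b, a SoxE gene of the crest, had 204 ± 36.4 in Vgll4l-KD and 453 ± 29.4 in Yap/Taz-KD, against 29.5 ± 12.6 in Control clusters (2.83 and 3.99, adjusted p = 6.8e-08 and 1.8e-09).

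**Figure D3:**
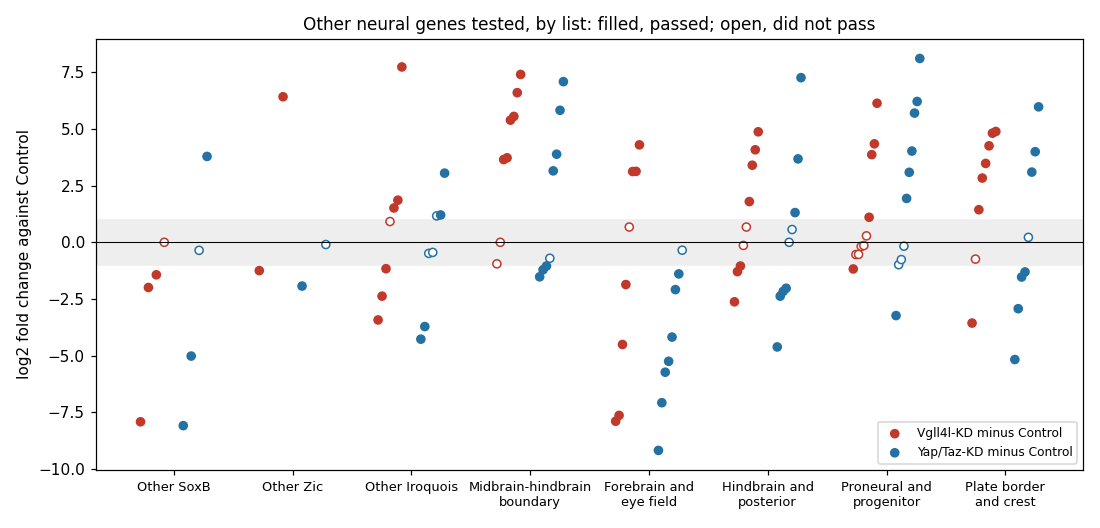
Log2 fold change against Control (vertical axis) of every tested gene of 8 lists of other neural genes, for Vgll4l-KD and Yap/Taz-KD, sorted within a list. Filled points passed, open points did not and the grey band marks absolute values under 1. The lists spread to both sides in most columns. In Vgll4l-KD 6 of 8 boundary genes and 6 of 8 plate border and crest genes passed as higher, beside 30.5% of all tested genes. In Yap/Taz-KD 7 of 8 forebrain genes passed as lower, beside 38.7%, among them six7 on 6 reads in all Control libraries. The lists were written with earlier results of these data known.

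The pluripotency factors that act with SoxB1 proteins were all 3 tested, with 1 higher and 1 lower in Vgll4l-KD and 0 higher and 1 lower in Yap/Taz-KD (medians 0.24 and -0.22). pou5f3 (ENSDARG00000044774), the zebrafish relative of the mammalian pluripotency gene Pou5f1, had 2921 ± 94.6 normalized counts in Vgll4l-KD and 1488 ± 63.3 in Yap/Taz-KD, against 1214 ± 21.1 in Control clusters. Its increase in Vgll4l-KD was 1.27 (log2, adjusted p = 3e-12). nanog had 107 ± 9.92 in Yap/Taz-KD and 347 ± 55.2 in Control clusters and fell by 1.69 (adjusted p = 1.1e-08). pou2f1b, a POU factor gene, fell by 1.11 in Vgll4l-KD (adjusted p = 3.4e-09).

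Of 14 genes for neural inducing and patterning signals 12 were tested, with 4 higher and 5 lower in Vgll4l-KD (median 0.08) and 4 higher and 4 lower in Yap/Taz-KD (median -0.50). dkk1b (ENSDARG00000045219), a secreted Wnt antagonist that favours anterior neural fate, had 487 ± 65.8 normalized counts in Vgll4l-KD clusters and 1.26 ± 0.984 in Control clusters (7.88, adjusted p = 1e-09), with 0.666 ± 1.33 in Yap/Taz-KD. fgf3, a signal of the hindbrain, had 61.4 ± 12.3 in Vgll4l-KD and 99.2 ± 7.75 in Yap/Taz-KD clusters and 3 reads in all Control libraries, 61.8-fold higher (counting interval 20.9 to 301) and 99.6-fold higher (33.9 to 485). fstb, which encodes a follistatin, an activin antagonist, had 4 reads in all Vgll4l-KD libraries and none in Yap/Taz-KD, against 296 ± 51.2 in Control clusters. It was lower in Vgll4l-KD (-7.63, adjusted p = 9.6e-10) and at least 532-fold lower in Yap/Taz-KD. fgf17 fell in both knockdowns, with 98.0 ± 7.52 in Vgll4l-KD and 4.53 ± 1.87 in Yap/Taz-KD, against 226 ± 31.6 in Control clusters (-1.19 and -5.40, adjusted p = 1.1e-04 and 2.1e-11).

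Markers of the labelled cells and of adjoining tissues also differed between the groups, and not all in the same order. The Control clusters held the markers of DFCs, among them sox17 (18140 ± 821 normalized counts), sox32 (27536 ± 363), foxj1a (22546 ± 1111) and tbxta (27409 ± 2117). The 12 forerunner markers, none of them at 0, summed to 0.455 to 0.473% of normalized counts in Vgll4l-KD, 0.634 to 0.636% in Yap/Taz-KD and 1.64 to 1.69% in Control libraries, with 11 lower and 1 higher in Vgll4l-KD and 9 lower and 1 higher in Yap/Taz-KD. The marker that was higher was dnah9 in both knockdowns. The 12 markers include vgll4l, the gene targeted in Vgll4l-KD, which is among those lower in both knockdowns. Epidermal ectoderm markers summed to 1.67 to 2.00% in Vgll4l-KD, 0.277 to 0.283% in Yap/Taz-KD and 0.178 to 0.191% in Control libraries. Of the 11 tested, 10 were higher in Vgll4l-KD, and in Yap/Taz-KD 4 were higher and 4 lower, with krt18b at 0 in every library. Enveloping layer markers summed to 3.98 to 4.53%, 0.801 to 0.811% and 0.556 to 0.595% in the same groups, and 9 of 13 were higher and 1 lower in Vgll4l-KD, with 2 higher and 2 lower in Yap/Taz-KD. krt4 is in both of these lists, and tfap2a is in the epidermal and the border list. Likewise, tbx16 is in the forerunner list and the mesoderm list given below. chrd is in the axial mesoderm list and the list of neural signals. tfap2a, which is known from non-neural ectoderm and crest, had 1780 ± 123 in Vgll4l-KD and 514 ± 19.4 in Yap/Taz-KD, against 59.4 ± 5.50 in Control clusters.

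Of the deeper layers, yolk syncytial layer markers summed to 0.0951 to 0.117% in Vgll4l-KD, 0.332 to 0.337% in Yap/Taz-KD and 0.0433 to 0.0566% in Control libraries. Of 10 tested, 7 were higher and 2 lower in Vgll4l-KD, and 6 higher and 1 lower in Yap/Taz-KD. Mesoderm markers summed to 0.0619 to 0.0658%, 0.00965 to 0.0109% and 0.0940 to 0.108% in the same groups, with 4 of 9 higher and 3 lower in Vgll4l-KD, 1 higher and 5 lower in Yap/Taz-KD, and tbx1 at 0 in every library. Axial mesoderm markers summed to 0.102 to 0.104%, 0.0736 to 0.0752% and 0.0609 to 0.0674%, and of 8 tested 5 were higher in Vgll4l-KD and 2 in Yap/Taz-KD. The part of these tissues in the levels of the neural genes was not tested. Fewer cells of a type and less RNA per cell cannot be told apart in such bulk libraries.

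**Figure D4:**
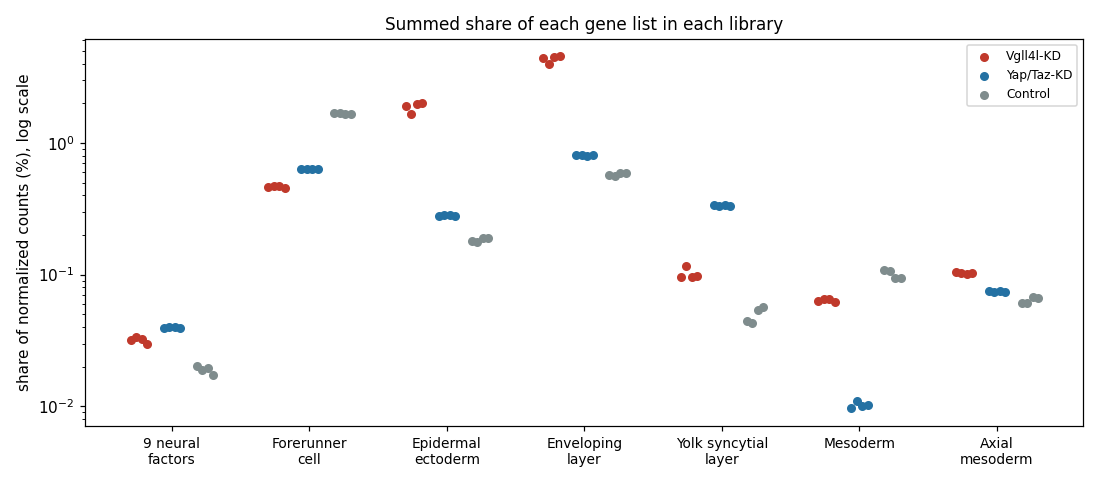
Share of normalized counts (vertical axis, percent, log scale) summed over the 9 neural genes and over 6 lists of cell markers, in each library of Vgll4l-KD, Yap/Taz-KD and Control. The epidermal and enveloping layer sums are highest in Vgll4l-KD (1.67 to 2.00% and 3.98 to 4.53%), the yolk syncytial sum in Yap/Taz-KD (0.332 to 0.337%) and the forerunner sum in Control (1.64 to 1.69%).

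For each of the 9 genes, the genes whose log2 levels were most like it over the 12 libraries were taken by Pearson r. The libraries fall into 3 groups, so a high r says mainly that the group means have the same order and spacing, and it is given as a description. For sox3 the nearest was srp9 (r = 0.997), a signal recognition particle gene with 1088, 2075 and 1104 normalized counts on average in Vgll4l-KD, Yap/Taz-KD and Control clusters. For zic2a it was snapc4 (r = 0.995), which encodes a subunit of a small nuclear RNA transcription complex, with 1156, 0.696 and 300 in those groups. For irx7 it was mrpl10 (r = 0.998), a mitochondrial ribosomal protein gene, with 436, 82.0 and 5.14. The nearest for sox19a was STAG1 (r = 0.997), for sox2 rfk (r = 0.983), for zic2b PPP1R3G (r = 0.999) and for gbx2 ppil2 (r = 0.986).

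Among the 9 genes themselves, sox19a and zic2b had the highest r (0.994) over the 12 libraries, and sox3 and zic2b the lowest (-0.991). These values too are set by the 3 group means. Neighbouring genes in the RefSeq annotation of GRCz12tu gave mixed patterns. senp3a, next but 1 to sox19a, had 357 normalized counts on average in Vgll4l-KD, 51.2 in Yap/Taz-KD and 559 in Control clusters, and so was also lowest in Yap/Taz-KD. eif4a1b, beside sox19a, had 69.3 normalized counts on average in Vgll4l-KD, 539 in Yap/Taz-KD and 51.8 in Control clusters, where sox19a had 333, 21.3 and 328. agap1, beside gbx2, had 3.39, 7.77 and 111 in those groups, and gbx2 had 6.99, 53.3 and 55.8.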

How the data were processed

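RNA-seq of 12 libraries was read from a single table. The authors aligned reads with STAR to GRCz10, counted them per Ensembl gene with featureCounts and normalized with DESeq2 (versions not given in the sources used here). The deposited headers call the signal TPM, but 100% of the nonzero values were whole multiples of a step proper to their column (tolerance 0.001), so these are reads divided by a size factor, and reads were recovered. The deposited table also holds log2 fold changes and adjusted p-values of the authors' own comparisons, which were not used. The table lists 31953 genes. No library had reads for 9964 of them, and of 13507 without a usable symbol 8398 got one by ID from a reference table. The labels do not state a strand-specific kit, so reads of overlapping and antisense genes cannot be told apart. Any reads shared by related copies (zic2a and zic2b, sox19a and sox19b) may be split between them. The sequences of these copies were not compared. A RefSeq annotation of GRCz12tu, not the assembly of these files, served for names and neighbours only.

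limma 3.58.1 in R 4.3.3 was fitted as limma-trend to log2(normalized count + 1) of all 12 libraries, for the 17609 genes averaging 1 or more, with Benjamini-Hochberg adjustment over all genes tested in each comparison. The spread is shared by the 3 groups. The libraries are called biological quadruplicates in the labels. The p-values rest on the spread between these libraries, which was near counting noise in several pairs. Whether that spread covers the variation between embryos was not tested. Folds against a group at 0 are bounds at 3 reads over the group, and counting intervals are exact 95% intervals of a ratio of pooled reads that cover counting error only. The 9 genes and all lists were chosen with earlier results of these data known. Genes named from other lists are, per knockdown, up to 2 higher and 2 lower of largest fold among genes past the threshold whose higher group averaged 50 or more, and for each of the 9 genes the genes of highest Pearson r. zic1, gbx1 and the forerunner markers and neighbours named beside these were chosen after their values were seen. Alternatives were other pseudocounts, no filter and a stricter one, TMM, edgeR 4.0.16 and DESeq2 1.42.0 on recovered reads, 2 groups alone, a replicate block, Control libraries averaged in pairs, other fold thresholds and each library left out. Tables were made with pandas 2.3.3, numpy 2.4.6 and scipy 1.17.1 in Python 3.11.15, and figures with matplotlib 3.10.9. Some genes are not reported here.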

Additional observations from a re-analysis of the deposited data

How the results depend on the processing

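Of 648 recomputed fold changes of the 9 genes, 627 kept their direction and their side of the threshold, and of 288 recomputed counts 286 stayed within 1.5 times. These tallies include the settings that changed only the fold threshold, where the fold changes themselves were the same by construction. Signs changed only for values that had not passed: sox3 in Vgll4l-KD minus Control (0.0177 with TMM scaling and 0.0244 with edgeR), gbx2 in Yap/Taz-KD minus Control (0.0856 with TMM scaling, 0.0874 with edgeR, and -0.161 to 0.0612 with a library left out, above 0 without Control replicate 2 and without Yap/Taz-KD replicate 4) and sox19a in Vgll4l-KD minus Control (-0.0653 to 0.116 with a library left out, below 0 without Control replicate 4 and without Vgll4l-KD replicate 1). At a log2 fold change of at least 2, 2 members instead of 4 were higher in Vgll4l-KD, as sox2 and zic2a fell under that threshold by construction. With no fold threshold sox19b and zic2b passed in Vgll4l-KD and sox19b in Yap/Taz-KD. irx1b passed as lower in Yap/Taz-KD with edgeR (-3.16, adjusted p = 0.04), DESeq2 (-2.90, adjusted p = 0.034) and averaged Control pairs (-1.02, adjusted p = 0.0055), and without Control replicate 2 or 4 (-1.06), on 3 reads in Control. The cause was not tested.

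With each library left out in turn, 4 to 4 members were higher and 1 to 1 lower in Vgll4l-KD against Control, 2 to 2 higher and 3 to 5 lower in Yap/Taz-KD against Control, the 5 without Control replicate 2, where sox19b (-1.03) and irx1b (-1.06) joined. Between the knockdowns 7 to 7 were higher and 2 to 2 lower. Over all genes 5303 to 5376 were higher and 7128 to 7297 lower in Vgll4l-KD, 5245 to 5306 and 6744 to 6828 in Yap/Taz-KD, and 5207 to 5355 and 5768 to 5923 between the knockdowns. Libraries of the same number did not deviate together (correlations of -0.06 to 0.02 over 12 pairs, against -0.03 to 0.04 over 36 pairs of other numbers). A fit with the replicate block gave 4 higher and 1 lower in Vgll4l-KD, 2 and 3 in Yap/Taz-KD and 7 and 2 between the knockdowns, with 5365 genes higher in Vgll4l-KD over all. Few reads limit the values of irx1b and the Zic genes in Yap/Taz-KD and of irx1b and irx7 in Control, which rest on 18 reads or fewer per group.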
